A study of Mus musculus with 6 samples.

Results

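The genes described here are 36 genes of cell division in mouse embryonic stem (ES) cells in which the transcription factor Snail was switched on. Of these, 20 act in G2 phase and mitosis (G2/M) and 16 act in DNA replication in S phase. They were chosen by symbol for these roles, and all probes carrying a member's symbol were read across 6 times. Of the 36 members, 34 had a probe among the 19057 genes on the array, 18 of the 20 G2/M members and all 16 S phase members. Together they had 69 probes, of which 53 were detected on at least 1 array. For the trend test over time, 29 members were among the 9432 genes tested, 13 G2/M and 16 S phase, and 26 of the 29 were detected on all 6 arrays. Ccnb2, Bub1, Cenpe, Kif20a and Hmmr had 7 probes, none well above background on any array, with normalized intensities of -11.5 to 13.1. Ccnb1 and Mki67 were not analysed here.

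All 6 arrays came from E14 cells, a mouse ES line, which carried Snail-ER, Snail fused to an estrogen receptor domain, and grew in medium with serum and LIF, the cytokine that keeps ES cells undifferentiated. The drug 4-OHT, which lets the fusion into the nucleus, was present for 0, 2, 4, 8, 12 or 24 h, with 1 Illumina bead array for each time. The series asks what the induced fusion does to expression over these hours. No array of cells without the fusion, or of cells kept for the same hours without 4-OHT, was analysed here, so the fusion, the drug and hours in culture change together and cannot be told apart. The labels give neither the promoter that drives the fusion nor whether the line is a single clone, and leave it unsaid whether a separate culture lay behind each array. All 7 ES cell markers (Pou5f1, Sox2, Nanog, Utf1, Lin28a, Dppa5a and Sall4) were detected on every array, with a summed normalized intensity between 29190 and 35102. Of 8 fibroblast feeder markers, Thy1 and Dcn were detected on at least 1 array and the collagens Col1a1, Col1a2 and Col3a1 were not, with a summed level of 135 to 218. Of 5 extraembryonic endoderm markers 2 were detected (Sox7 and Dab2; summed level 82.7 to 143), and of 4 trophectoderm markers Eomes alone was (31.9 to 67.3), with Cdx2 not detected. Within these lists Nanog, a pluripotency factor, read 3769, 2586, 2833, 1235, 1147 and 1402 and fell (limma adjusted p = 0.0081), and Eomes read 17.99 at 0 h and 56.8 at 24 h (limma adjusted p = 0.0303), well above background on 2 arrays. Of the other ES cell markers, Pou5f1 (4383 at 0 h, 6189 at 24 h), Sox2, Utf1, Lin28a and Sall4 were higher at 24 h. Dppa5a was lower (21314 at 0 h, 17702 at 24 h). The part of these shifts in the values below was not tested.

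The genes of DNA replication and those of mitosis are made in successive waves of the cell cycle. Before S phase, the loading factors Cdc6 and Cdt1 place the MCM helicase on origins of replication, and GINS, the clamp PCNA, primase and a supply of deoxynucleotides then allow forks to run. Many of these genes are transcribed through E2F sites. In G2, cyclins bound to the kinase Cdk1, together with Plk1 and the Aurora kinases, drive the cell into mitosis, and the anaphase-promoting complex, switched on by Cdc20, ends it by marking cyclins and securin for destruction. Many G2/M genes are held down until late in the cycle by a complex that binds the cell cycle homology region (CHR) beside CCAAT boxes of their promoters. Mouse ES cells are known for rapid division with short gap phases.

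The promoters of 4 members are shown because they carry the motifs whose frequency differs between the 2 classes. They are Cdc20 and Cdk1 for G2/M, and Mcm3 and Rrm2, the S phase members with the steepest downward slopes in the arrays. Each sequence is from RefSeq on GRCm38.p6 and runs 5′ to 3′ on the gene's strand, from 250 bases before the annotated start to 50 after it. Capitals mark matches on either strand to the CHR element (TTTGAA or TTCGAA), the CCAAT box (CCAAT) and the E2F site (TTCCCGC or TTGGCGC or TTCGCGC or TTGCCGC). The Snail E-box (CAGGTG) was searched as well and had no match in these 4 windows. The regions are chr4:118437294-118437593 (minus strand) for Cdc20, chr10:69352863-69353162 (minus strand) for Cdk1, chr1:20820263-20820562 (minus strand) for Mcm3 and chr12:24708004-24708303 (plus strand) for Rrm2.
Cdc20: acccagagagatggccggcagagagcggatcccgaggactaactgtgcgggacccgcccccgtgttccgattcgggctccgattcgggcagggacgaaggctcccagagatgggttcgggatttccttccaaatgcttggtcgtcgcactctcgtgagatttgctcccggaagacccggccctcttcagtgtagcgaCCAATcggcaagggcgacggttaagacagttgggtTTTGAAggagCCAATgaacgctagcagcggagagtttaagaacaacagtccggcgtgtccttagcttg
Cdk1: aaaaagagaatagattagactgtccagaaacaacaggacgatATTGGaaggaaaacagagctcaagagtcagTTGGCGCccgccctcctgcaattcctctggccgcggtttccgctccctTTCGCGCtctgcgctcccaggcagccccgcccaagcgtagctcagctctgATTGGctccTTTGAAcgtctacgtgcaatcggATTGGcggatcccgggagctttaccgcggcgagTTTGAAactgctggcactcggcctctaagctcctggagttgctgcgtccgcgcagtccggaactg
Mcm3: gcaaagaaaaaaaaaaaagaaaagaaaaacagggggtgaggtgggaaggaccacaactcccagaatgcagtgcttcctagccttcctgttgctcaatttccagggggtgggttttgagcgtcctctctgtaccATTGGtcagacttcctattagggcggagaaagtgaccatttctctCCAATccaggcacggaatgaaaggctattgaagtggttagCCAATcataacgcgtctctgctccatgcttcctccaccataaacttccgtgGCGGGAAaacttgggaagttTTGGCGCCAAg
Rrm2: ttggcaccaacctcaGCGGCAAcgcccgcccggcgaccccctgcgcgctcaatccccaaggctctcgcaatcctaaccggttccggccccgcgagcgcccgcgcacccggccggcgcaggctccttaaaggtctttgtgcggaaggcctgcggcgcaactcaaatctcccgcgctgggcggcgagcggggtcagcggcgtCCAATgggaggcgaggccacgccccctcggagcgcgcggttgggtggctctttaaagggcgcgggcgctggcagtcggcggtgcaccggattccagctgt

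The Cdc20 promoter held 1 CHR match, 18 bases before the start, between 2 CCAAT boxes, and no E2F match. The Cdk1 promoter held matches of all 3 kinds, 2 CHR, 3 CCAAT and 2 E2F. Mcm3 had 3 E2F matches, all downstream of the start and 2 of them overlapping, and Rrm2 had 1, with no CHR match in either. RefSeq's table held a promoter for 16 of the 20 G2/M and 13 of the 16 S phase members. Each gene was counted once, as holding a motif if any of its promoters there did. The CHR letters occurred in 12 of 16 G2/M members (75%) and in 3 of 13 S phase members (23.1%), against 21.7% of the 27025 genes with a promoter and 16.2% of the 7701 of them tested for a trend. E2F letters showed the opposite order, with 10 of 13 S phase members (76.9%), 4 of 16 G2/M members (25%), 10.9% of all genes with a promoter and 20.4% of the tested ones. CCAAT was frequent in both classes, in 14 of 16 (87.5%) and 9 of 13 (69.2%), against 41.1% of all genes with a promoter and 43.6% of the tested ones. The Snail E-box occurred in 1 of 16 G2/M members (Nusap1) and in 2 of 13 S phase members (Prim1 and Tyms), against 22.6% of all genes with a promoter and 20.7% of the tested ones. A match describes letters in this window and is not evidence that a protein binds there.

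None of the 29 members tested passed the trend test, which fitted the log2 normalized intensity of each gene against log2(hours + 1) with limma at an adjusted p of 0.05. Over all genes tested, 6.24% rose and 6.19% fell by this rule, and among the 5917 genes detected on all 6 arrays 12.2% passed in either direction. The fitted change, the slope multiplied by the distance between 0 and 24 h, is on a log2 scale after 16 intensity units were added, and all folds given below are on that scale, which understates changes of dim genes. Without adjustment, limma gave p under 0.05 for 6 of 29 members, with Ccna2, Cdc20, Aurkb and Gins2 higher and Mcm3 and Rrm2 lower, where 16.7% of all genes were higher and 13.3% lower. The smallest adjusted p of a member was 0.0622, for Aurkb. The 95% interval of the fitted change lay within 2-fold either way for 27 of 29 members and within 1.5-fold for 15. The 2 whose interval reached past 2-fold were dim G2/M genes, Ccna2 and Ube2c. These intervals are for the fitted slope and do not bound a rise and fall between single arrays. They are not adjusted for the number of genes and hold no replicate error. Without the 0 h array the fitted change of Mcm6 was -0.73, below its lower limit of -0.62. Missing the threshold does not show that a gene stayed level. A bulk array cannot tell fewer cells in a phase of the cycle from less RNA in each such cell. With 1 array for each time, the error in this test is how far single arrays lay from the fitted line, and that distance may be technical.

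**Figure D1:**
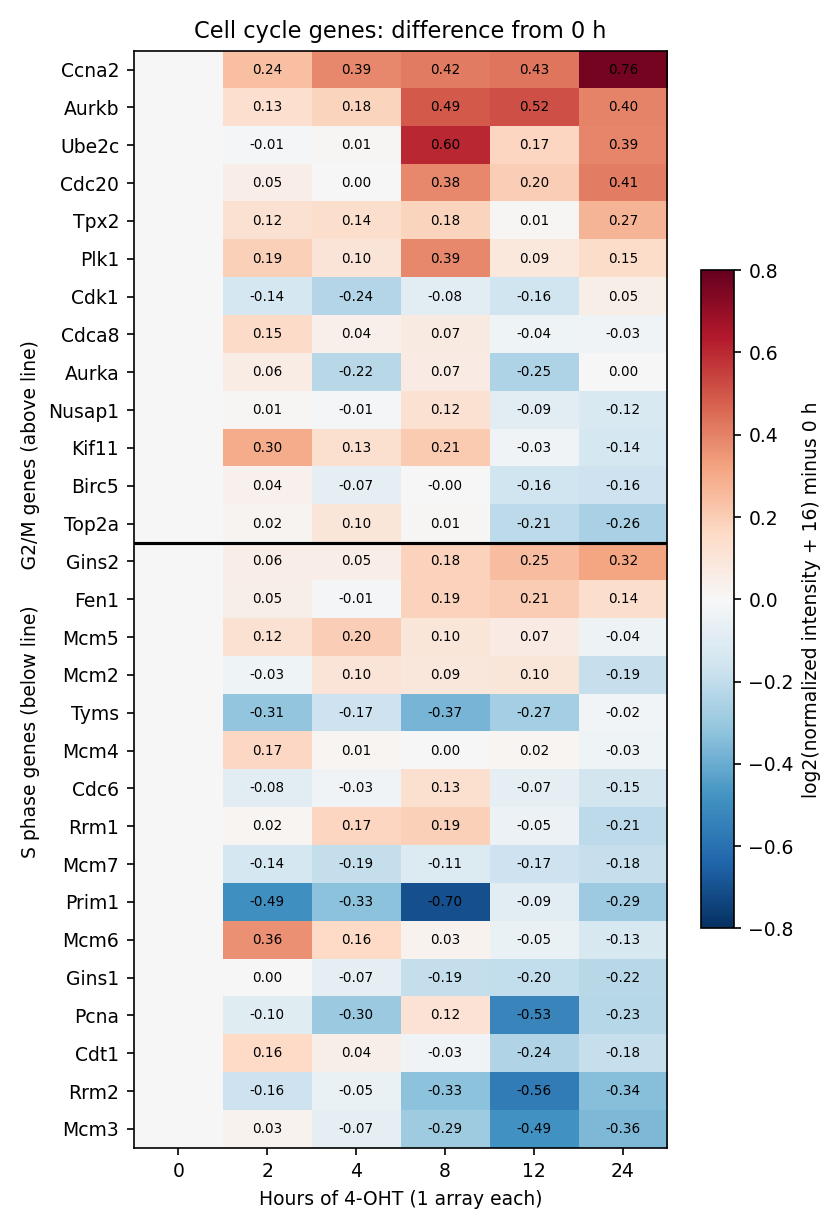
Log2 difference of each tested member from its 0 h array (colour) at 2, 4, 8, 12 and 24 h of 4-OHT, with G2/M members above the line and S phase members below it, each in order of fitted change. The deepest colours, for Ccna2, Ube2c and Prim1, belong to probes not detected on every array, so these values are no measured folds, and 14 of the 16 S phase rows are below 0 at 24 h.

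On its brightest probe, no member was at least 1.5-fold from 0 h at any time, where 26, 28, 27, 29 and 29 members could be compared at 2, 4, 8, 12 and 24 h because either array detected them. By the same rule, 0.929% of all comparable genes were higher and 1.21% lower after 2 h, and 0.441% were higher and 2.96% lower after 4 h. Later shares were 6.46% higher with 8.26% lower (8 h), 5.89% higher with 8.58% lower (12 h) and 5.55% higher with 8.99% lower (24 h). Where a gene was detected on 1 of the 2 arrays, only the fold that the detection limit of the other array allows was counted. The range from the highest to the lowest array had a median of 0.36 log2 units over members and 0.56 over all genes tested. Among genes detected on all 6 arrays, this median was 0.32 for G2/M members, 0.32 for S phase members and 0.44 for all genes. None of the 29 members had a fitted change of 1 log2 unit or more, against 11.4% of all genes tested and 6.24% of those detected on all 6 arrays.

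The cyclin, kinase and anaphase trigger group had the highest median fitted change of the G2/M groups, 0.42, which was the value of Cdc20. All 5 tested members sloped upward and none passed the test, where 44.1% of all genes tested sloped downward. Of the 5, Ccna2 and Ube2c were not detected at 0 h, and Cdk1 had a fitted change of 0.02 ± 0.15. Cdc20, the activator of the anaphase-promoting complex, had normalized intensities of 1945, 2018, 1947, 2539, 2229.8 and 2583 in order of time on its brightest probe. The 3 arrays from 8 h on were above the 3 earlier ones, and the value at 24 h was 1.33-fold that at 0 h. Its fitted change was 0.42 ± 0.15 (SE; limma adjusted p = 0.0885). The other 3 Cdc20 probes passed when each detected probe was fitted on its own, an alternative chosen after the data were seen. Their values went from 968, 993 and 1085 up to 4 h to 1323, 1322 and 1518 from 8 h on for one, from 219.9, 339 and 278 to 422, 424 and 433 for another, and from 833, 995 and 929 to 1286, 1255 and 1455 for the last. Their 24 h values were 1.56-, 1.90- and 1.73-fold the 0 h values, with limma adjusted p of 0.0159, 0.0165 and 0.0119 over 14606 probes. On every Cdc20 probe, the arrays from 8 h on were thus above those up to 4 h, and the size differed between probes.

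In that fit of single probes, 6.14% of all probes rose and 5.55% fell. Of 23 detected G2/M probes 3 rose, all of Cdc20, and of 30 detected S phase probes 2 rose, both of Mcm4, while none of either class fell. Several detected probes were present for 13 tested members, and in 6 of these all probes sloped in the same direction. Cdc20 (4 probes) and Gins2 (3 probes) sloped upward throughout, and Mcm6 (4 probes), Mcm7, Rrm1 and Rrm2 (2 probes each) sloped downward.

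Plk1, the kinase that promotes mitotic entry and spindle assembly, read 1214, 1388, 1304, 1591, 1289 and 1346, with its highest value at 8 h, 1.31-fold that at 0 h (fitted change 0.14 ± 0.16; limma adjusted p = 0.59). Ube2c, the ubiquitin-conjugating enzyme of the anaphase-promoting complex, read 39.8, 39.4, 40.1, 68.6, 46.9 and 57.0 and was not well above background at 0 and 2 h. At 8 h, also its highest value, it exceeded the 0 h value by at least 1.10-fold. Both genes thus had their highest array at 8 h, with lower values on either side. Cdk1, the mitotic kinase, read 1767, 1601, 1497, 1667, 1584 and 1828, so that its first and last arrays were its highest. Its 95% interval ran from -0.31 to 0.36 on the log2 scale, less than 1.5-fold in either direction. Ccna2, the cyclin that serves both S phase and mitotic entry, read 11.5, 16.5, 19.97, 20.8, 21.1 and 30.8. Each value was above the one before, but the probe was well above background on the 12 and 24 h arrays only, which also had the narrowest backgrounds, and no bound on a fold could be given (fitted change 0.68 ± 0.30; limma adjusted p = 0.162).

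Among the checkpoint, chromosomal passenger and chromosome structure genes, 4 were tested, with a median fitted change of -0.13 and none past the test. Aurkb, the kinase of the chromosomal passenger complex, read 501, 551, 568, 711, 723 and 666, with its 3 later arrays above its 3 earlier ones. It was 1.43-fold its 0 h value at 12 h and 1.32-fold at 24 h, and its fitted change was 0.52 ± 0.17 (limma: adjusted p = 0.0622). On their brightest probes, its partners in the same complex sloped slightly the other way. Birc5 (survivin) read 2219, 2276, 2109, 2212, 1982 and 1980.1, lowest on its last 2 arrays, and its fitted change was -0.18 ± 0.13 (limma: adjusted p = 0.357). Cdca8 (borealin) read 1381, 1539, 1422, 1454, 1346 and 1356, a range of 1.14-fold. Neither passed the test, and the direction depended on the probe, since a dimmer probe sloped upward for both Cdca8 (fitted change 0.22 ± 0.16) and Birc5 (0.07 ± 0.16). Top2a, the topoisomerase that untangles sister chromosomes, read 2454, 2492, 2626, 2471, 2119 and 2047 on its brightest probe, with its 2 last arrays lowest (fitted change -0.28 ± 0.15; limma adjusted p = 0.226). A dimmer Top2a probe detected on all 6 arrays was nearly level (-0.02 ± 0.16). Another, well above background at 12 and 24 h only, sloped upward (0.51 ± 0.28).

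The 4 spindle and motor genes tested had a median fitted change of -0.09 and none passed. Aurka, the centrosomal Aurora kinase, read 1231, 1282, 1051, 1290.1, 1033 and 1232, with dips at 4 and 12 h. Tpx2, which activates Aurka on the spindle, read 303, 332, 335, 345, 305 and 369. Its lowest arrays were at 0 and 12 h. Kif11, the motor that pushes spindle poles apart, read 475, 588, 522, 551, 466 and 429.9, and was 1.35-fold higher at its highest time, 2 h, than at 24 h. Nusap1, which bundles spindle microtubules, read 1088, 1094, 1078, 1187, 1024 and 998, with its highest array at 8 h and its lowest at 24 h. Aurka, Kif11 and Nusap1 had small downward slopes and Tpx2 an upward one, with limma adjusted p of 0.789, 0.567, 0.70 and 0.508.

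The origin licensing and helicase genes sloped downward in 9 of 10 cases, where 44.1% of all genes tested did. Their median fitted change was -0.12 and none passed the test. The steepest was Mcm3, a subunit of the MCM2-7 helicase, with 1030.2, 1049, 978, 842, 731 and 799.7 in order of time. Its 3 arrays from 8 h on were below its 3 earlier ones, and at 12 h it was 1.40-fold lower than at 0 h and at 24 h 1.28-fold lower. Its fitted change was -0.50 ± 0.16 (limma adjusted p = 0.0674; 95% interval -0.86 to -0.14). Mcm6 read 3161, 4069.7, 3532, 3220.0, 3051 and 2893, highest at 2 h and then lower at each time, and its fitted change was -0.24 ± 0.17 (limma: adjusted p = 0.374). Without the 0 h array its slope passed the test, at -0.73 when scaled to the distance between 0 and 24 h (limma adjusted p = 0.0438). The measured Mcm6 values declined by 0.49 log2 units from 2 to 24 h. The remaining helicase subunits varied less. Mcm2 read 1591, 1554, 1708, 1696, 1704 and 1396, lowest at 24 h. Mcm5 read 5362, 5826, 6144, 5743, 5612 and 5211, highest at 4 h. Mcm7 read 1843, 1672, 1615, 1704, 1638 and 1619.7, highest at 0 h. Their fitted changes ran from -0.16 for Mcm7 to -0.04 for Mcm5. On their brightest probes, 4 of the 6 subunits of the ring (Mcm2, Mcm4, Mcm5 and Mcm6) had their lowest value at 24 h. This held for 18% of all genes tested and 21.6% of those detected on all 6 arrays. For Mcm4 and Mcm5 the log2 difference from 0 h at 24 h was only -0.03 and -0.04.

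Mcm4 differed between its probes. Its brightest probe read 4789.6, 5379.9, 4838, 4796, 4845 and 4675, a range of 1.15-fold, and its fitted change was -0.08 ± 0.12 (limma: adjusted p = 0.712). Its 2 dim probes read 5.09, 10.5, 18.97, 34.8, 32.8 and 37.1, and 4.26, 10.6, 19.1, 17.7, 26.7 and 25.6, and rose when fitted as single probes (limma adjusted p = 0.0141 and 0.0460 over all probes). Both were well above background at 12 and 24 h only, where the background SD was 4.72 and 4.73 intensity units, against 8.72 to 16.1 on the other 4 arrays. The part of background in these slopes was not tested.

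Cdt1, the licensing factor that brings the helicase to origins, read 2741, 3068, 2828, 2689.5, 2320.0 and 2415, with its 3 later arrays below its 3 earlier ones and a fitted change of -0.29 ± 0.15 (limma adjusted p = 0.22). Its partner Cdc6 read 624, 588, 613, 684, 592 and 562, highest at 8 h. The GINS complex, which joins the MCM ring in the active helicase, was split between its 2 subunits measured here. Gins2 read 944, 981, 978, 1072, 1124 and 1181 and was 1.25-fold its 0 h value at 24 h (fitted change 0.34 ± 0.14; limma adjusted p = 0.125). Gins1 read 385, 385, 365, 336, 334 and 329, lowest at 24 h, and its fitted change was -0.26 ± 0.16 (limma: adjusted p = 0.277). Neither slope passed the test.

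Of the fork enzymes, Pcna, the sliding clamp of the replicative polymerases, read 559, 521, 451, 607, 383 and 475. Its largest difference was between the neighbouring 8 and 12 h arrays, its highest and lowest, 1.56-fold apart. Fen1, the flap nuclease of lagging-strand synthesis, read 2284, 2359.8, 2267, 2599, 2637 and 2519, with its 3 later arrays above its 3 earlier ones (fitted change 0.20 ± 0.13; limma adjusted p = 0.312). Prim1, the catalytic subunit of primase, read 50.1, 31.1, 36.7, 24.7, 46.3 and 38.1 and was not well above background at 0, 2 and 8 h. No order can be read from its values at those times.

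On their brightest probes all 3 genes of nucleotide supply sloped downward, where 44.1% of all genes tested did. Their median fitted change was -0.15 and none passed the test. Rrm2, the regulatory subunit of ribonucleotide reductase, which makes deoxynucleotides, read 841, 748, 809, 666, 566 and 661. Its 3 later arrays were below its 3 earlier ones, at 12 h it was 1.47-fold lower than at 0 h, and its fitted change was -0.46 ± 0.18 (limma adjusted p = 0.106). A dimmer Rrm2 probe read 522, 606, 574, 423, 424 and 424, with the same division at 8 h. Rrm1, the catalytic subunit, read 982, 993, 1106, 1124, 951 and 846, highest at 8 h and lowest at 24 h. A dimmer Rrm1 probe read 663, 713, 770.4, 672, 641 and 575, highest at 4 h and also lowest at 24 h. Tyms, which makes thymidylate, read 1858, 1492, 1653, 1436, 1539 and 1832, with its first and last arrays highest (fitted change -0.07 ± 0.18). Its direction depended on the probe, since 2 of its 4 detected probes sloped upward (0.87 ± 0.31 and 0.63 ± 0.38). Both were dim and well above background at 12 and 24 h only. On both detected probes of each reductase subunit the 24 h value was below that at 0 h.

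**Figure D2:**
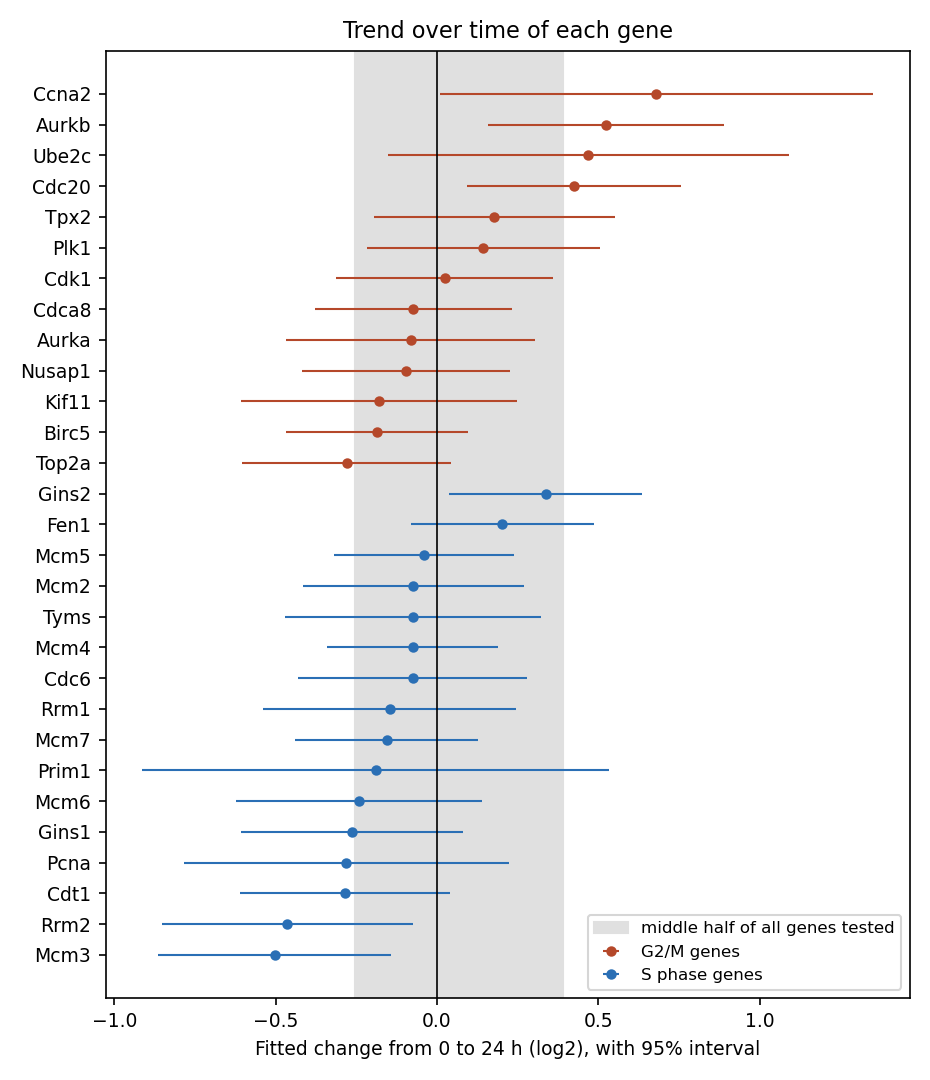
Fitted log2 change from 0 to 24 h for the 29 members tested, G2/M in red and S phase in blue, with 95% intervals that are not adjusted for the number of genes, and the quartile range of all genes tested in grey. Aurkb and Mcm3 lie farthest from 0 relative to their intervals, and no member passed the adjusted test.

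Set side by side, the median of the S phase genes was the lower of the 2 classes at every time after 0 h. The median fitted change was 0.02 for the 13 G2/M genes (range -0.28 to 0.68) and -0.15 for the 16 S phase genes (range -0.50 to 0.34), against 0.06 for all genes tested. Among genes detected on all 6 arrays the medians were -0.07 for 11 G2/M genes, 6 of which sloped downward, -0.15 for 15 S phase genes, 13 of them downward, and 0.01 for all genes, 48.7% of them downward. The gap between the class medians of the fitted change was thus 0.18 over all members tested and 0.07 over those detected throughout. It was 0.0026 in the same fit over the 9 G2/M and 11 S phase genes held in the table with detection p-values, and 0.0066 when that table was fitted. Slopes were downward in 14 of 16 S phase genes and 6 of 13 G2/M genes, and in 44.1% of all genes tested. Relative to 0 h, the G2/M median at 2, 4, 8, 12 and 24 h was 0.06, 0.04, 0.18, -0.03 and 0.05 on the log2 scale. The S phase median was 0.009, -0.02, 0.01, -0.08 and -0.18, and the median of all genes tested stayed between 0.0097 and 0.076. The gap between the classes relative to 0 h was widest at 24 h, 0.23 log2 units. At that time 2 of 16 S phase genes, Gins2 and Fen1, and 8 of 13 G2/M genes were above their 0 h value, as were 54.2% of all genes. The lowest array was the 24 h array for 7 of 16 S phase genes and 4 of 13 G2/M genes, against 18% of all genes tested and 21.6% of those detected on all 6 arrays. No array was repeated, so this gap has no replicate error and was not tested, and the genes of a class share the same 6 arrays and are not replicates.

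**Figure D3:**
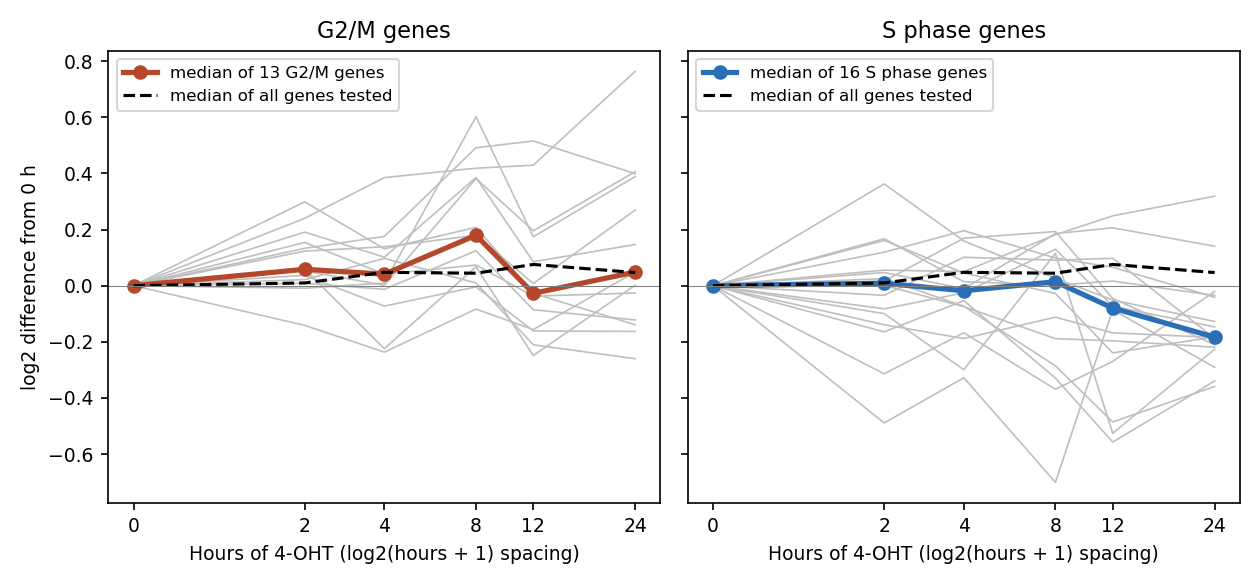
Log2 difference from 0 h against hours of 4-OHT, with thin lines for single members, thick lines for the median of the 13 G2/M and of the 16 S phase genes, and the median of all genes tested. The G2/M median peaks at 8 h at 0.18, and the S phase median ends at -0.18 at 24 h.

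Most G2/M genes were higher on the 8 h array than on either neighbouring array. From 4 to 8 h, 12 of 13 G2/M genes were higher, all but Top2a, with a median step of 0.14, where 49.0% of all genes were higher. From 8 to 12 h, 11 of 13 were lower, all but Ccna2 and Aurkb, with a median step of -0.19, where 41.4% of all genes were lower. Over the same steps 6 of 16 S phase genes were higher, each time. The steps in G2/M genes are small, and 1 array, at 8 h, enters both of them. That array had a background SD of 15.99 intensity units, near those of the 0 and 2 h arrays. The 2 h array showed a like order with smaller median steps. From 0 to 2 h, 11 of 13 G2/M genes were higher (median step 0.06), where 51.6% of all genes were. From 2 to 4 h, 8 of 13 were lower (median step -0.05), where 42.5% of all genes were. Of the 13 G2/M genes, 4 had their highest value at 8 h and 4 at 24 h, times at which 13.7% and 20.9% of all genes were highest. The S phase genes were most often highest at 2 h (5 of 16) and 0 h (4 of 16), against 11.9% and 18.6% of all genes.

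Other genes of the same processes were read out of the same fit. Of the 62 other G2/M genes tested, 2 rose and 2 fell, with a median fitted change of -0.01, and of 46 other S phase genes 1 rose and none fell, with a median of -0.08. By the same rule, 6.24% of all genes tested rose and 6.19% fell. In the unadjusted limma fit, p was under 0.05 for 13 of the 62 and 12 of the 46, where 16.7% of all genes were higher and 13.3% lower. The genes that rose were Gtse1, a G2/M regulator of p53 (1119 at 0 h, 1684 at 24 h; limma adjusted p = 0.0206), Ckap2, a spindle protein (419 and 603; 0.0442), and Topbp1, a replication initiation factor (at least 1.68-fold higher at 24 h; 0.0408). Those that fell were Cep55, a scaffold of cell separation (128 and 47.4; limma adjusted p = 0.0102), and Sgo2a, a protector of centromeric cohesion (953 and 575; 0.0453). Each of these 5 calls was lost when at least 1 array was left out, the 0 h array among them in every case. All 5 were also lost without the detection filter and with untransformed hours. Of all genes, 0 passed in the former setting, and 18 rose and 11 fell in the latter, so these losses are not particular to the 5. The calls of Ckap2, Gtse1 and Sgo2a were lost without the intensity trend of the fit as well. The highest adjusted p without 1 array was 0.141 for Cep55, 0.121 for Sgo2a, 0.159 for Gtse1, 0.29 for Ckap2 and 0.30 for Topbp1. On their second probes, Cep55 (limma adjusted p = 0.342 over all probes) and Gtse1 (0.0601) did not pass, and the Cep55 call was also lost with the mean of its probes.

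Of 17 cell cycle transcription factors tested, 2 fell and none rose, where 6.19% of all genes fell and 6.24% rose. Their median fitted change was 0.11. E2f2, an activator of S phase genes, read 318, 173, 179, 138, 125 and 93.5 and was 3.05-fold lower at 24 h than at 0 h. Its fitted change was -1.51 ± 0.20 (limma adjusted p = 0.0036), its other probe fell too, and it passed without each array in turn, with a highest adjusted p of 0.0449. The call was lost in 2 of 15 alternatives, without the detection filter and with untransformed hours. Of all genes, 0 passed in the former, and 18 rose and 11 fell in the latter. Mybl2 (B-Myb), an activator of G2/M genes, read 2152, 1702, 1678, 1205, 1048 and 1262 with a 24 h value 1.70-fold below the first (slope equal to -0.96 ± 0.19 log2 units over the course; limma adjusted p = 0.0126), a call lost without the 0 h array (adjusted p = 0.114) and in the same 2 alternatives. On their own, 2 of the 3 Mybl2 probes passed. E2f1 and Foxm1 did not pass. E2f1 read 598, 583, 695, 570.4, 606 and 677 (limma adjusted p = 0.69). Foxm1, a further activator of G2/M genes, read 179, 177, 182, 213, 214 and 197 (limma adjusted p = 0.407). Both E2f2 and Mybl2 had their 3 lowest values from 8 h on, as did the S phase members Mcm3, Rrm2, Cdt1 and Gins1, none of which passed the test. The S phase members Gins2 and Fen1 instead had their 3 highest values from 8 h on. On their brightest probes the remaining S phase members showed neither split, and the share of all genes with such a split was not counted. A link between E2f2 or Mybl2 and these members was not tested.

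**Figure D4:**
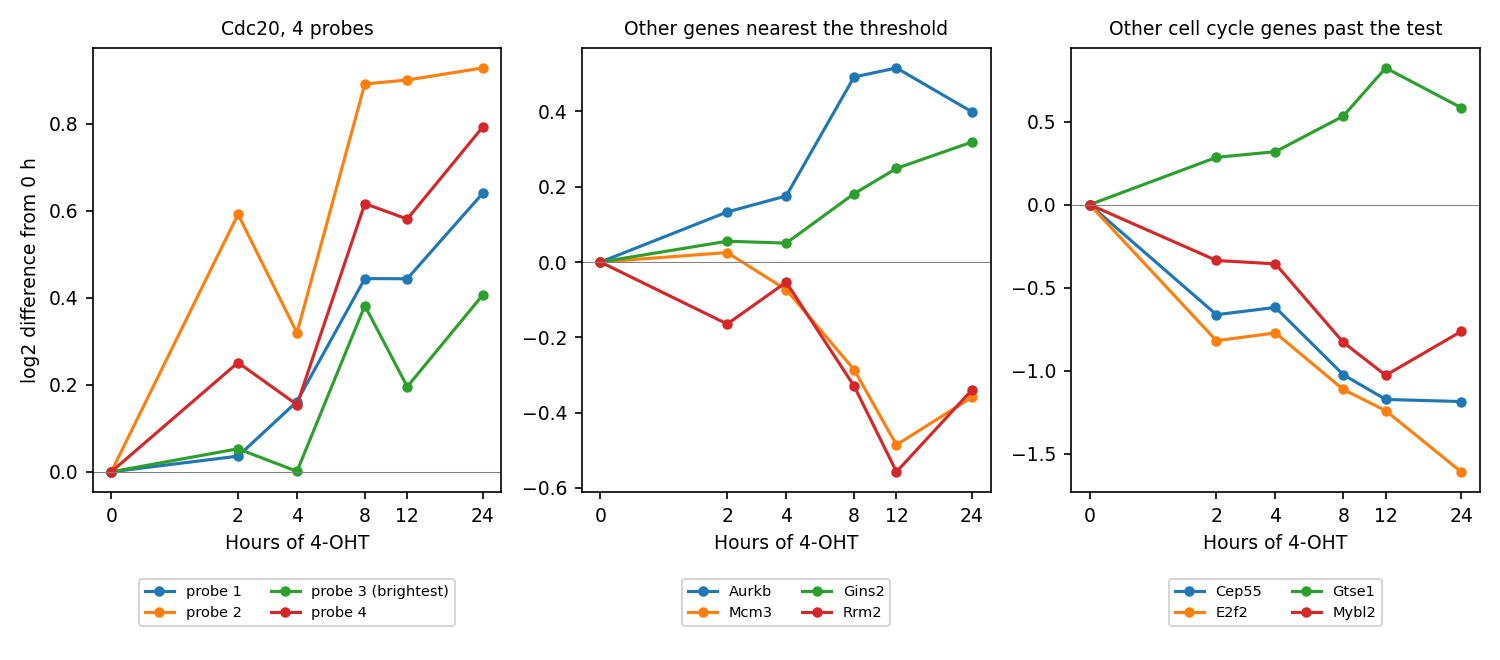
Log2 difference from 0 h against hours of 4-OHT, in 3 panels with their own vertical scales: the 4 Cdc20 probes, the brightest probes of Aurkb, Gins2, Mcm3 and Rrm2, and those of Cep55, E2f2, Gtse1 and Mybl2. All 4 Cdc20 lines are above 0 at 24 h, Mcm3 and Rrm2 are lowest at 12 h, and E2f2 is 3.05-fold below its first value at 24 h.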

How the data were processed

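The authors deposited a table of probe intensity with detection p-values, without background subtraction per the file headers, and a table of normalized intensity for 45281 probes, which was used here. The submitters' processing notes name GenomeStudio, and what it did to the values is not given in the sources used here. Judged by its values, the deposited normalized intensity is linear, background-subtracted and quantile normalized, which fixes each array's distribution and hides any change shared by most genes. The table with p-values, as held here, covers 32765 probes (72.4%). A probe was called detected at a p-value under 0.01 or, outside that table, at or above the lowest normalized intensity of a detected probe on that array, between 18.5 (12 h) and 71.1 (2 h). The number of probes detected ran from 10047 at 2 h to 15928 at 12 h, and 1 array for each time limits the precision.

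Negative values were set to 0, 16 was added and log2 taken. Symbols came from the platform annotation, and 34807 probes matched RefSeq genes by Entrez identifier. Each gene took its brightest probe by mean over the 6 arrays, a choice that ignores time. Trends were fitted with limma 3.58.1 (lmFit, eBayes with intensity trend, 4 residual degrees of freedom, 2-sided, Benjamini-Hochberg over all genes) in R 4.3.3, and the fit was tested on simulated data. The members and all gene lists were chosen with earlier results of these data known. All members are named, as are companion genes past the test, up to 3 in each direction for each list, and E2f1 and Foxm1 were added after their values were seen. Pseudocount, filter, time scale, input table, centring, probe rule, eBayes setting and each array were varied in turn.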

Additional observations from a re-analysis of the deposited data

How the results depend on the processing

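Over 15 alternatives and 423 pairings of a tested member with an alternative, the limma trend passed in 4, and 16 had the opposite sign, in 13 members. Over all genes, the count that rose was 0 without the detection filter, 354 among genes detected on all 6 arrays, 18 with untransformed hours, 375 from the table with detection p-values, and 194 to 563 when 1 array was left out. The count that fell was 0 without the filter, 11 with untransformed hours, 359 without the intensity trend, and 228 to 660 with 1 array left out. Without the filter, 4840 of 34885 probes were at or below 0 on all arrays and had no scatter. Of G2/M members, 1 rose with the mean of all detected probes (Cdc20, 0.72; limma adjusted p = 0.0157), 1 without the intensity trend (Ccna2, adjusted p = 0.0456) and 1 with each detected probe on its own (Cdc20), an alternative chosen after seeing the data. Of S phase members, 1 (Mcm4) rose with the mean of probes and 1 (Mcm4) with single probes, and the number that fell ran from 0 to 1 (Mcm6, without 0 h) with 1 array left out. With the mean of probes the fitted change turned positive for Cdca8 (0.072), Top2a (0.071), Cdc6 (0.21), Mcm4 (0.84) and Tyms (0.32), and for Tyms with untransformed hours (0.094). Leaving out 1 array turned the sign of 10 members, with ranges of -0.16 to 0.30 for Cdk1, -0.040 to 0.24 for Plk1, -0.21 to 0.0079 for Aurka, -0.63 to 0.011 for Kif11, -0.12 to 0.034 for Cdc6, -0.21 to 0.15 for Mcm2, -0.28 to 0.092 for Mcm5, -0.34 to 0.34 for Prim1, -0.41 to 0.080 for Rrm1 and -0.35 to 0.30 for Tyms. The cause was not tested. Medians of the fitted change stayed between -0.08 and 0.07 for G2/M and between -0.24 and -0.09 for S phase members. Their gap, 0.18 in the reported fit, ran from 0.15 to 0.20 where all 29 members were fitted, and was 0.07 among genes detected on all arrays and 0.0066 from the table with detection p-values. That table holds 20 of the members, over which the reported fit gave 0.0026, so the gap depends on which members are counted. Wide backgrounds on the 0, 2 and 8 h arrays limit what can be read of dim genes. No paired analysis was possible because each time has 1 array and the labels carry no replicate numbers.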
